A study of Caenorhabditis elegans with 33 samples.

Results

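Whole wild-type *Caenorhabditis elegans* that ate purH mutant bacteria were compared directly with animals that ate ycdC mutant bacteria. The members are the libraries titled purH and ycdC, 3 of each, which make 6 of the 33 libraries of the series. The BW25113 libraries, the usual control of the series, stay out of the comparison. The series fed strain N2 the *Escherichia coli* laboratory strain BW25113 or 1 of 10 bacterial mutants, 11 diets in all, and its title concerns genetic variation of gut microbes and social behavior. Both groups shared everything the labels state except the diet: N2 animals, synchronized adults, RNA from the whole body extracted with Trizol, and DNBSEQ sequencing. The sources used here do not give the adult age, how many animals made a library, the kind of bacterial mutation, whether libraries were stranded, or whether replicates were separate cultures. A p-value below therefore sets the difference between the diets against the spread between libraries of a diet, 3 in each, and that spread may be technical. Since reads of the bacteria were not analysed here, neither mutated gene serves as a check of its label.

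Both bacterial genes act in nucleotide metabolism. In *E. coli*, PurH is the bifunctional enzyme of the last steps that build inosine monophosphate, the precursor of adenine and guanine nucleotides. The product of ycdC, also named rutR, is a transcriptional regulator that controls the rut operon for the breakdown of pyrimidines. Worms build purines and pyrimidines themselves and also take up nucleosides and bases from their food, and their counterpart of PurH is atic-1.

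Each library held between 20.5 M and 22.7 M expected read counts (M, 1e6), and between 15309 and 16914 genes were above 0 in a library. Expected counts are estimated reads per gene. Levels below are CPM, counts per 1e6 on library sizes scaled with TMM factors, which ranged from 0.591 to 1.63 and were both reached in purH libraries. Of 18811 genes, 13247 passed the filter on low counts, and the 5564 left out held 0.0822% of the counts. The defining markers fixed for intestine, muscle, pharynx, neurons, hypodermis, germline, sperm and oocytes were above 0 in all 6 libraries.

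PurH replicate 1 was less like either other purH library than any purH library was like any ycdC library. Across the genes tested, which are not independent replicates, Pearson correlations of log2 CPM within the purH diet were 0.803 between replicates 1 and 2, 0.848 between replicates 1 and 3, and 0.962 between replicates 2 and 3. Within the ycdC diet they lay between 0.918 and 0.948. Between the diets they ran from 0.866 to 0.971, above the lower pair of values within purH, and the top value joined purH replicate 3 to ycdC replicate 3. PurH replicate 1 correlated better with ycdC replicates 1 and 2, at 0.944 and 0.941, than with either library of its own diet. Whether this library carries the label of its own diet was not tested, and each value below takes the labels as given. The first principal component held 61.1% of the variance, and it set purH replicate 1 with ycdC replicates 1 and 2 on one side and purH replicates 2 and 3 with ycdC replicate 3 on the other.

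**Figure D1:**
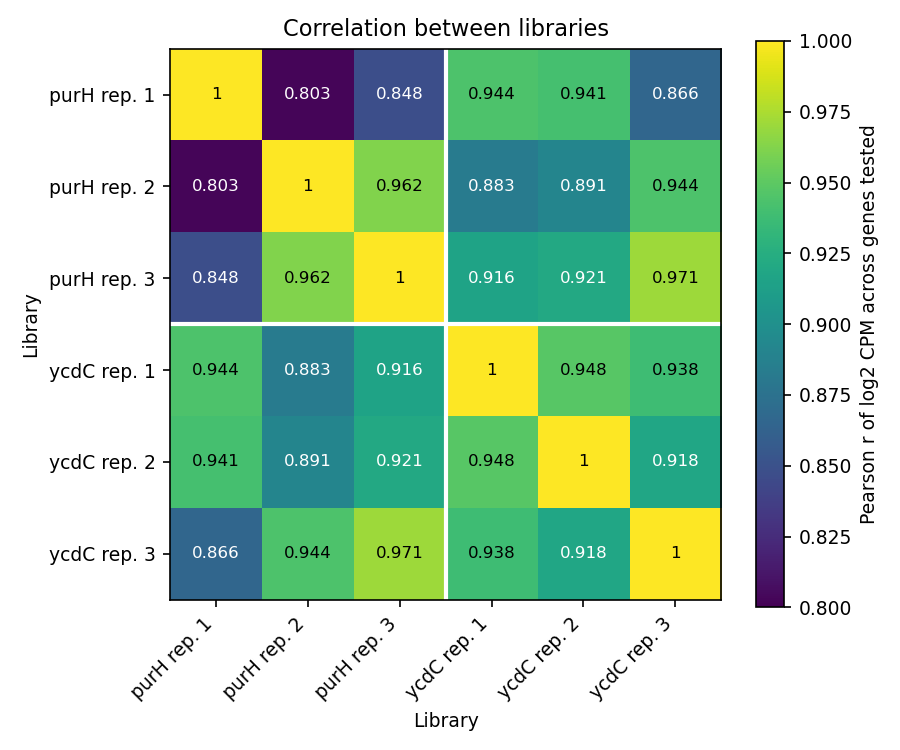
Pearson correlation of log2 CPM for each pair of the 6 libraries across 13247 genes, with purH above and left of ycdC. PurH replicate 1 has 0.803 and 0.848 with the other purH libraries but 0.944 and 0.941 with ycdC replicates 1 and 2.

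The median gene had a standard deviation of 0.655 log2 CPM within purH and 0.598 within ycdC. The diet means of the median gene lay 0.264 apart. On a scale shared by all 33 libraries, the median standard deviation was 0.687 in purH and 0.619 in ycdC, the highest values among the 11 diets, against 0.401 in BW25113 and 0.568 in ypdF, which came next after ycdC. PurH replicate 1 was the highest or lowest of the 6 libraries in 49.3% of genes, and the other libraries were so in 17.7% to 39.3%.

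Lists of genes for tissues and processes show where purH replicate 1 stood apart. It had the lowest level of the 33 libraries in 19 of 51 lists. Among these were the lists for vitellogenins, oocytes and eggshell, germline, body wall muscle, intestine, cuticle collagens, purine synthesis, pyrimidine synthesis and nucleoside transport. It had the highest level in 2, F-box with MATH-BATH and pals. There ycdC replicate 2 came close, with a level of 1.11 against 1.12 in F-box with MATH-BATH and 1.01 against 1.09 in pals. The yolk protein gene vit-2 had 1790, 13500 and 25700 CPM in purH replicates 1 to 3, against 17600, 5570 and 23800 CPM in ycdC replicates 1 to 3. On the scale of all 33 libraries, purH replicate 1 had 1540 CPM and ycdC replicate 2 had 4390 CPM, below the other 27 libraries at 5010 to 27400 CPM. The body wall muscle myosin gene unc-54 had 254, 3330 and 4870 CPM in purH, against 1500, 637 and 4660 CPM in ycdC. Both genes were lowest in purH replicate 1, next lowest in ycdC replicate 2, and overlapped between the diets. In RNA from whole animals, fewer cells of a type and less RNA per cell cannot be told apart. Length moved with the libraries too, with genes put in 5 classes of equal size by their longest spliced transcript. The class of shortest transcripts sat at a median of 0.262, -0.24 and -0.0632 log2 units from the gene mean in purH replicates 1 to 3. In ycdC replicates 1 to 3 the medians were -0.155, 0.479 and -0.258. In the class of longest transcripts, they were -0.286, 0.322 and 0.0532 in purH and 0.275, -0.47 and 0.105 in ycdC. The part of transcript length in the results below was not tested.

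**Figure D2:**
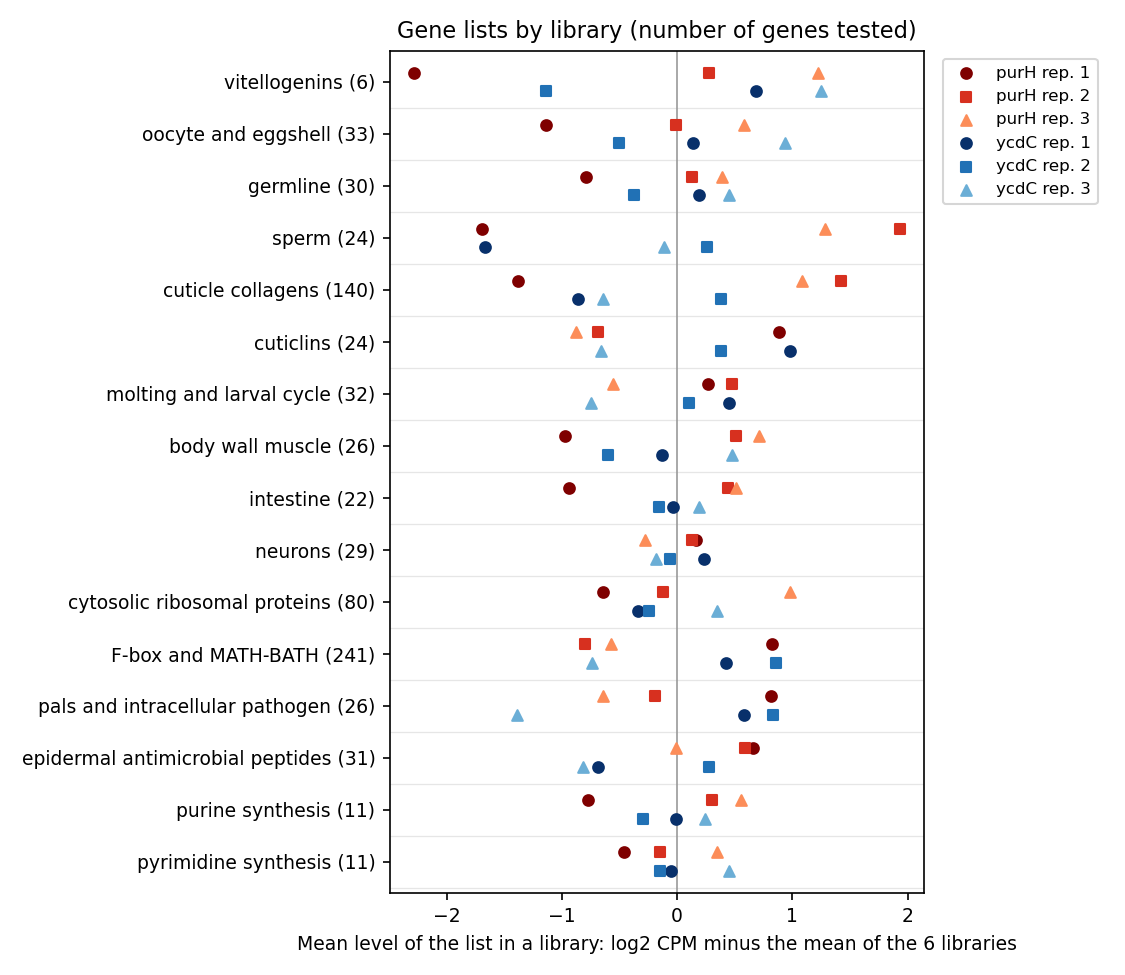
Mean level of 16 gene lists in each library, as log2 CPM minus the mean of the 6 libraries, with the number of genes tested in brackets and purH drawn above ycdC in each row. PurH replicate 1 lies at -2.28 for vitellogenins and at -1.38 for cuticle collagens, and at 0.82 for F-box and MATH-BATH genes. For these last genes, ycdC replicate 2 lies at 0.86.

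No gene differed between the purH and ycdC diets at an adjusted p under 0.05. With edgeR's quasi-likelihood test and Benjamini-Hochberg adjustment over 13247 genes, 0 genes (0%) were called and the smallest adjusted p was 0.9999. At an unadjusted p under 0.05 there were 99 genes (0.747%), 88 higher (0.664%) and 11 lower (0.083%) in purH. DESeq2 called 1 gene, which was lower in purH, and had 267 at an unadjusted p under 0.05. With a weight for each library, limma voom called 0 genes, with 2445 at an unadjusted p under 0.05. Without purH replicate 1, edgeR called 158 genes, described further on.

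These libraries bound a difference only loosely. The median standard error of a log2 fold change was 0.566, and the median 95% interval reached 1.27 log2 units to either side. Only 963 genes (7.27%) had an interval that stayed within 1 log2 unit of no difference. The biological coefficient of variation was 56.1%. For most genes the interval thus includes a 2-fold difference, and the absence of a call does not show equal levels.

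Libraries of the diets did not overlap in 368 genes (2.78%), with purH higher in 212 (1.6%) and lower in 156 (1.18%). An exact permutation test of 3 libraries against 3 cannot give a two-sided p below 0.1. The genes named next are those without overlap, with a mean of at least 5 CPM and with the lowest unadjusted p. All had an adjusted p of 1 in edgeR and are given by value only.

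Among genes with higher values in purH that meet these limits, Y37E11B.7 on chromosome IV (3599497 to 3600164, WBcel235) had the lowest p. It had 18.5, 10.6 and 13.4 CPM in purH replicates 1 to 3, against 4.64, 4.4 and 5.0 CPM in ycdC replicates 1 to 3. The means were 14.2 ± 4.01 CPM in purH and 4.68 ± 0.3 CPM in ycdC (SD, n = 3 each). Every purH library was above every ycdC library, and the log2 fold change was 1.60 (95% interval 0.67 to 2.53, edgeR unadjusted p 0.00359). On a scale set over all 33 libraries, the purH libraries had 9.36 to 15.9 CPM and the ycdC libraries 3.47 to 4.7 CPM, and the other 27 ran from 1.38 to 19.5 CPM with a median of 5.33 CPM.

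The caenacin gene cnc-8 on chromosome X (10306595 to 10306951), one of a family of small antimicrobial peptides of the epidermis, had 62.9, 18.3 and 26.0 CPM in purH, against 10.4, 12.9 and 12.5 CPM in ycdC. The 3 ycdC libraries were close together while purH replicate 1 was far above the other purH libraries. On the scale of all 33 libraries, purH replicate 1 had 54 CPM, above the other 27 libraries, which ran from 6.18 to 24.9 CPM. Its log2 fold change was 1.58 (0.46 to 2.71, edgeR unadjusted p 0.0111), and 0.87 without purH replicate 1. The warthog gene wrt-4, which codes for a hedgehog-related protein, had 4.2, 18.6 and 5.46 CPM in purH, against 2.07, 2.4 and 2.44 CPM in ycdC. Its log2 fold change was 2.03 (0.60 to 3.46, edgeR unadjusted p 0.0106). PurH replicate 2 was far above the other purH libraries, which were nearer to ycdC.

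The cuticle collagen gene col-58 had 10.6, 23.7 and 9.18 CPM in purH, against 3.98, 7.71 and 1.61 CPM in ycdC, with a log2 fold change of 1.71. The glutathione S-transferase gene gst-39, from a family of detoxification enzymes, had 40.1, 26.8 and 45.2 CPM in purH, against 17.1, 20.4 and 22.1 CPM in ycdC, with a log2 fold change of 0.91 (0.08 to 1.74). Both were without overlap. R08E5.3 had 113, 365 and 241 CPM in purH, against 106, 105 and 85.7 CPM in ycdC, so purH replicate 1 lay near the ycdC libraries. The other 6 genes named by the rule were F45E4.5, tag-297, C42D4.3, ZK662.2, F23B12.4 and M02H5.8, with log2 fold changes of 1.98, 1.97, 1.99, 1.88, 1.22 and 1.21. F45E4.5, F23B12.4 and R08E5.3 overlap a gene on the opposite strand, and without known strandedness reads of such partners cannot be told apart.

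Among genes with lower values in purH, T09B4.5 had 30.5, 24.7 and 47.5 CPM in purH, against 125, 55.1 and 85.8 CPM in ycdC, with a log2 fold change of -1.37 (-2.42 to -0.33, edgeR unadjusted p 0.0156). The gene pgap-2, named after a mammalian factor for glycosylphosphatidylinositol-anchored proteins, had 16.4, 9.42 and 11.0 CPM in purH, against 21.9, 26.5 and 23.6 CPM in ycdC. On the scale of all 33 libraries, the ycdC libraries had 20.1, 20.9 and 22.2 CPM, at or above the top of the other 27. Those 27 libraries ran from 0 to 20.1 CPM with a median of 8.38 CPM. The purH libraries had 14.1, 8.31 and 9.5 CPM on that scale, inside the range of the other 27. Its log2 fold change was -0.97 (-1.82 to -0.12).

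The transcription factor gene hbl-1, a hunchback-like timer of larval development, had 18.2, 4.9 and 11.5 CPM in purH, against 45.9, 20.0 and 20.3 CPM in ycdC, with a log2 fold change of -1.31 (-2.57 to -0.06). The aquaporin gene aqp-2, for a water channel, had 80.9, 72.4 and 107 CPM in purH, against 260, 143 and 143 CPM in ycdC, with a log2 fold change of -1.07. In both, ycdC replicate 1 was far above the other ycdC libraries. The C-type lectin gene clec-78 had 6.66, 1.94 and 4.88 CPM in purH, against 19.8, 9.24 and 7.91 CPM in ycdC, and several genes lie on the opposite strand of its locus. The gene T20B3.1 had a log2 fold change of -1.02. A further 5 genes named by the rule, nspc-1, nspc-14, nspc-16, nspc-17 and nspc-19, belong to 1 family and are described below.

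A pair of genes was at 0 in all libraries of 1 diet and had at least 10 counts in each library of the other. They were singled out after their values were seen, and both lie within other genes. F59E12.17 (chromosome II, 5648795 to 5649470) had 0 counts in all 3 purH libraries, against 36, 27 and 38 counts in ycdC replicates 1 to 3. With a floor of 3 counts over the group it was at least 32.5-fold lower in purH, and it was the gene that DESeq2 called (adjusted p 0.00462). Among the other 27 libraries, 13 were at 0 and the highest had 82 counts, so 0 counts were common outside this comparison. It overlaps sam-4 on the same strand, and sam-4 had 28.5, 44.9 and 38.6 CPM in purH, against 54, 32 and 41.9 CPM in ycdC.

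F54F2.14 (chromosome III, 8791546 to 8792801) had 14, 18 and 22 counts in purH, against 0 counts in all 3 ycdC libraries, and was at least 18.7-fold higher in purH on the same floor. Of the other 27 libraries, 21 were at 0 and the top value was 16 counts. It overlaps ztf-1 and zfp-1. The zfp-1 gene had 27.9, 91.2 and 78.1 CPM in purH, against 85.3, 37.6 and 113 CPM in ycdC. On the opposite strand, ztf-1 had 25.6, 27.1 and 29.2 CPM in purH, against 26.0, 15.1 and 24.3 CPM in ycdC. The diets overlapped in both genes. How reads were shared between overlapping genes is not given in the sources used here.

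The list of epidermal antimicrobial peptide genes had more non-overlapping members than the background. It joins fip and fipr genes with cnc genes and some nlp genes. Peptides of the cnc and nlp kind are made by the worm's epidermis in defence against microbes and injury. Whether the fip and fipr members share that role was not tested. Of 46 genes in the list, 31 passed the filter and 0 were called. In 9 of the 31 (29%) every purH library was above every ycdC library, against 1.6% of all genes tested, and in 0 was purH below. The median log2 fold change of the 31 was 1.12, against -0.0057 over all genes tested, and 25 were above 0. Some members, fipr-10 and nlp-24 among them, overlap a gene on the opposite strand, whose reads cannot be told apart here. Many of the listed genes are short neighbours of similar sequence, so the counting could split their reads, and the members are not independent of each other.

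Among them, nlp-34 had 3.79, 3.46 and 4.88 CPM in purH, against 1.95, 1.35 and 0.357 CPM in ycdC, with a log2 fold change of 1.71. The gene fipr-10 had 10.3, 19.7 and 10.8 CPM in purH, against 1.01, 7.42 and 5.11 CPM in ycdC, with 1.59. For fipr-9 the values were 15.8, 8.41 and 6.21 CPM in purH, against 2.22, 4.87 and 5.23 CPM in ycdC, with 1.31. In these 3 genes the split did not rest on 1 purH library, and in fipr-9 and fipr-10 ycdC replicate 1 was the lowest of the 6. The other members without overlap were cnc-8, fipr-5, fipr-7, fipr-29, fip-5 and nlp-25, so most members without overlap were fip or fipr genes.

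Some members did not split in this way, and their levels differed. By deposited TPM, a measure per length, nlp-24 averaged 371 and nlp-29 19.4 over the 6 libraries, and the diets overlapped in both. Of the members without overlap, cnc-8 averaged 89.7 and nlp-34 11.1. The neuropeptide-like gene nlp-24 had 111, 181 and 149 CPM in purH, against 104, 136 and 134 CPM in ycdC, with a log2 fold change of 0.24. The gene nlp-29, known for its induction by fungal infection and wounding, had 6.37, 5.08 and 2.98 CPM in purH, against 5.26, 14.7 and 1.43 CPM in ycdC, with -0.57. The diets also overlapped in nlp-27, nlp-31, cnc-4 and cnc-10, with log2 fold changes of 0.19, -0.21, 0.08 and -0.18. Summed over the list, the level was 550, 554 and 436 CPM in purH, against 311, 508 and 347 CPM in ycdC, and these sums overlap.

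The count depends on the library scaling. With library totals alone, 3 of the 31 (9.68%) did not overlap, all higher in purH, against 0.596% of all genes, and with size factors of DESeq2 (RLE) 11 did (35.5%), against 1.76%. The list's median was 0.69 without purH replicate 1, and ran from 0.69 to 1.43 over the 13 alternatives.

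**Figure D3:**
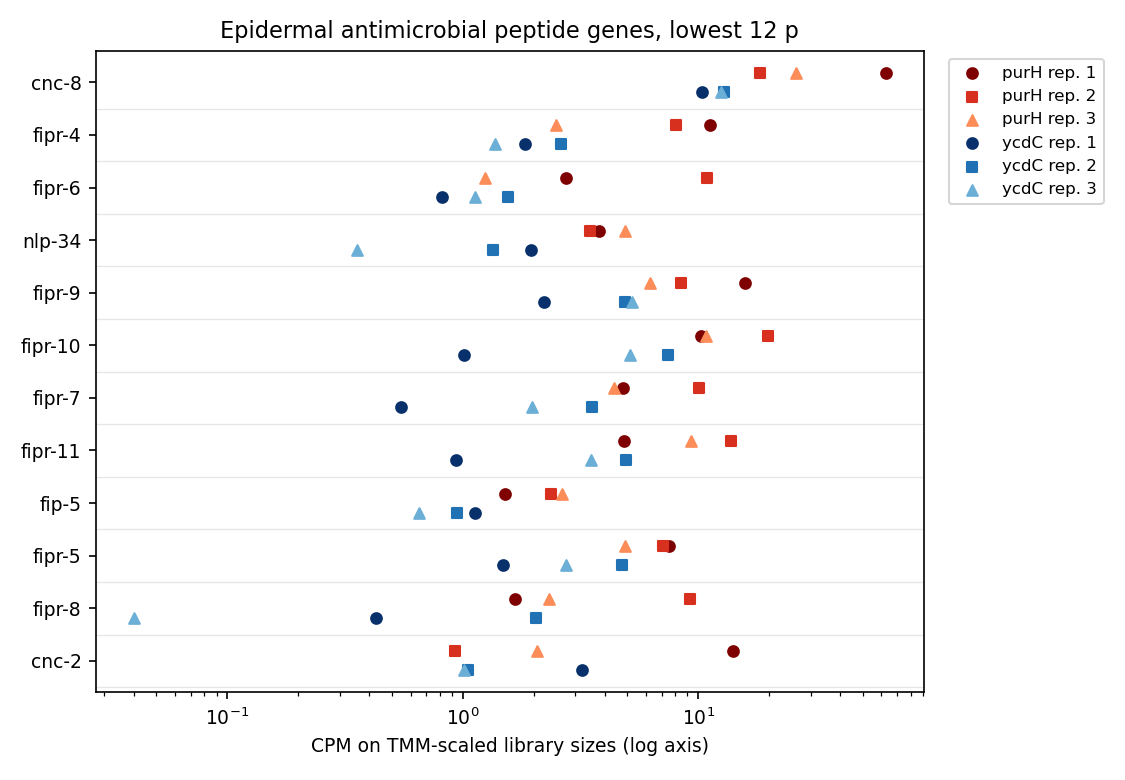
CPM on a log axis for the 12 genes with the lowest unadjusted p on the list of epidermal antimicrobial peptides, in each library. PurH is drawn above ycdC in each row. Values below 0.04 CPM are drawn at 0.04, which applies to fipr-8 in ycdC replicate 3, listed at 0. For nlp-34 the purH libraries lie between 3.46 and 4.88 CPM and the ycdC libraries between 0.357 and 1.95 CPM.

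The nspc genes code for nematode-specific peptides and lie in groups on chromosome X, 15 of the 16 by the annotation, with 1 symbol unmatched. The family was singled out after its values were seen, and its members are near-identical neighbours whose reads the counting could split. All 16 passed the filter and had log2 fold changes below 0, from -1.08 in nspc-18 to -0.02 in nspc-7, with a median of -0.64. None was called. Without purH replicate 3 the median was -0.3 and 14 of the 16 were below 0, and 14 were also below 0 without ycdC replicate 1. In 6 (37.5%) every purH library was below every ycdC library, against 1.18% of all genes tested. The gene nspc-14 had 8.56, 10.9 and 6.04 CPM in purH, against 16.0, 14.8 and 14.9 CPM in ycdC. For nspc-19 the values were 7.4, 7.02 and 8.27 CPM in purH, against 12.6, 24.0 and 10.3 CPM in ycdC. The purH libraries lay close together in nspc-19, and the ycdC libraries in nspc-14. With library totals alone, 0 of the 16 were without overlap and 15 had a log2 fold change below 0.

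Worm genes of nucleotide metabolism, the pathway of both bacterial genes, gave no call. The 5 lists hold 45 genes, all 45 passed the filter, and 0 had an unadjusted edgeR p under 0.05. The medians of the log2 fold changes were 0.11 for purine synthesis (11 genes), 0.14 for purine salvage and breakdown (8 genes), -0.13 for pyrimidine synthesis (11 genes), 0.22 for pyrimidine salvage and breakdown (8 genes) and -0.19 for nucleoside transport (7 genes), against -0.0057 over all genes tested. Only the median of pyrimidine salvage and breakdown kept its sign over all 13 alternatives, at 0.17 to 0.38. By list level among the 33 libraries, highest first, purine synthesis put purH replicates 1 to 3 at places 33, 8 and 1. The ycdC libraries were at 24, 32 and 7. For pyrimidine synthesis the places were 33, 25 and 5 in purH, against 19, 29 and 1 in ycdC. Several of the 45 genes overlap a gene on the opposite strand, among them atic-1, pfas-1, T22D1.3, ampd-1, adk-1 and dhp-2. Reads of such partners cannot be told apart without known strandedness, and cdd-2 overlaps pam-1 on the same strand.

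The worm counterpart of PurH, atic-1 (chromosome IV, 7882026 to 7900257), had 24.2, 24.4 and 35.7 CPM in purH, against 25.7, 39.5 and 26.3 CPM in ycdC. The libraries overlapped, and the log2 fold change was -0.12 (95% interval -0.96 to 0.73). In purine synthesis the gene with the lowest p was F38B6.4, for the enzyme of several earlier steps, with 4.12, 16.7 and 15.4 CPM in purH, against 8.15, 4.07 and 6.48 CPM in ycdC. PurH replicates 2 and 3 were above all ycdC libraries and replicate 1 was not, and the log2 fold change was 0.95 (-0.35 to 2.25). The gene pfas-1, for phosphoribosylformylglycinamidine synthase, had the same order in purH, with 5.45, 29.0 and 27.9 CPM, against 16.0, 8.76 and 16.8 CPM in ycdC, and a log2 fold change of 0.58.

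After inosine monophosphate, the path splits toward adenine and guanine nucleotides. The adenylosuccinate synthetase gene adss-1 had 43.4, 252 and 478 CPM in purH, against 203, 133 and 370 CPM in ycdC, with a log2 fold change of 0.13 (-1.64 to 1.90). The IMP dehydrogenase gene T22D1.3 averaged 77.9 ± 44.9 CPM in purH and 70.3 ± 38.8 CPM in ycdC (SD, n = 3 each), with 0.15. The GMP synthase gene gmps-1 had a log2 fold change of 0.16 and the adenylosuccinate lyase gene adsl-1 of -0.09. In adss-1, T22D1.3 and gmps-1 alike, purH replicate 1 was the lowest of the 6 libraries and the spread within a diet exceeded the distance between the means.

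In purine breakdown, the xanthine dehydrogenase gene xdh-1 was the only gene of the 45 without overlap, a share near the 2.78% of all genes tested that were without overlap in either direction. It had 8.76, 11.4 and 9.18 CPM in purH, against 7.06, 6.07 and 4.52 CPM in ycdC. The means were 9.79 ± 1.42 CPM in purH and 5.88 ± 1.28 CPM in ycdC (SD, n = 3 each), and the log2 fold change was 0.73 (-0.20 to 1.67, edgeR unadjusted p 0.11). The salvage gene hprt-1, for hypoxanthine-guanine phosphoribosyltransferase, had 37.8, 25.8 and 44.7 CPM in purH, against 22.7, 71.8 and 22.2 CPM in ycdC, so the purH libraries lay between the ycdC extremes. The AMP deaminase gene ampd-1 had 18.1, 76.9 and 91.9 CPM in purH, against 48.3, 29.6 and 50.2 CPM in ycdC, with a log2 fold change of 0.54 (-0.76 to 1.85). The adenosine kinase gene adk-1 had a log2 fold change of 0.24 and the purine nucleoside phosphorylase gene pnp-1 of 0.12.

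Pyrimidine breakdown, the process that the bacterial regulator YcdC controls in *E. coli*, runs in animals through dihydropyrimidine dehydrogenase, dihydropyrimidinase and beta-ureidopropionase. The dehydrogenase gene dpyd-1 had 24.7, 59.8 and 54.2 CPM in purH, against 36, 28.5 and 46.7 CPM in ycdC, with a log2 fold change of 0.32 (-0.68 to 1.31). The dihydropyrimidinase gene dhp-1 had 12.7, 6.01 and 4.63 CPM in purH, against 5.18, 5.6 and 2.62 CPM in ycdC, with 0.80 (-0.44 to 2.04), and its relative dhp-2 had 0.11. The ureidopropionase gene upb-1 had 38.6, 50.6 and 52.9 CPM in purH, against 40.7, 54 and 52.8 CPM in ycdC, with -0.06 (-0.88 to 0.77). Of the 3 steps, upb-1 had the narrowest interval, and replicate 1 was its lowest library in each diet.

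The cytidine deaminase gene cdd-2 had the widest interval of the 8 genes for pyrimidine salvage and breakdown. It had 29.8, 1.85 and 4.39 CPM in purH, against 6.12, 33.2 and 5.47 CPM in ycdC, with a log2 fold change of -0.31 (-2.59 to 1.98). PurH replicate 1 and ycdC replicate 2 were both high, and without purH replicate 1 the log2 fold change was -2.3 (edgeR adjusted p 0.142). The uridine phosphorylase gene upp-1 had a log2 fold change of -0.18 and the cytidine deaminase gene cdd-1 of 0.48.

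Pyrimidine synthesis starts in animals with the multifunctional enzyme of pyr-1, which had 18.2, 44.9 and 41.7 CPM in purH, against 30.5, 22.1 and 38.4 CPM in ycdC, and a log2 fold change of 0.20. The UMP synthase gene umps-1 had 32.4, 95.7 and 173 CPM in purH, against 89.2, 70 and 171 CPM in ycdC, with -0.13. The dihydrofolate reductase gene dhfr-1 had 72.0, 33.9 and 36.2 CPM in purH, against 77.6, 86.3 and 53.8 CPM in ycdC, with -0.61 (-1.62 to 0.39). Here purH replicate 1 sat among the ycdC libraries, and purH replicates 2 and 3 were below all of them. The thymidylate synthase gene tyms-1 had a log2 fold change of -0.34, the dihydroorotate dehydrogenase gene dhod-1 of 0.28, and the ribonucleotide reductase genes rnr-1 and rnr-2 of -0.26 and -0.16.

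By deposited TPM, which is scaled per length, the mean level over the 6 libraries was 8300 for the nucleoside diphosphate kinase gene ndk-1, 267 for rnr-2, 205 for adk-1, 112 for adss-1, 14.6 for atic-1, 3.99 for pyr-1, 2.62 for F38B6.4 and 1.76 for xdh-1. Thus xdh-1 was among the least abundant. The transporter gene ent-3, of the equilibrative nucleoside transporters, averaged 0.407 TPM. It had 0.148, 3.97 and 0.91 CPM in purH, against 0.195, 0.691 and 0.357 CPM in ycdC, and a log2 fold change of 2.00 (-0.46 to 4.45, edgeR unadjusted p 0.0993). The wide interval goes with low counts and with purH replicate 1 below all other libraries. The log2 fold changes of the other 6 transporter genes lay between -0.54 in ent-6 and 0.18 in ent-2.

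**Figure D4:**
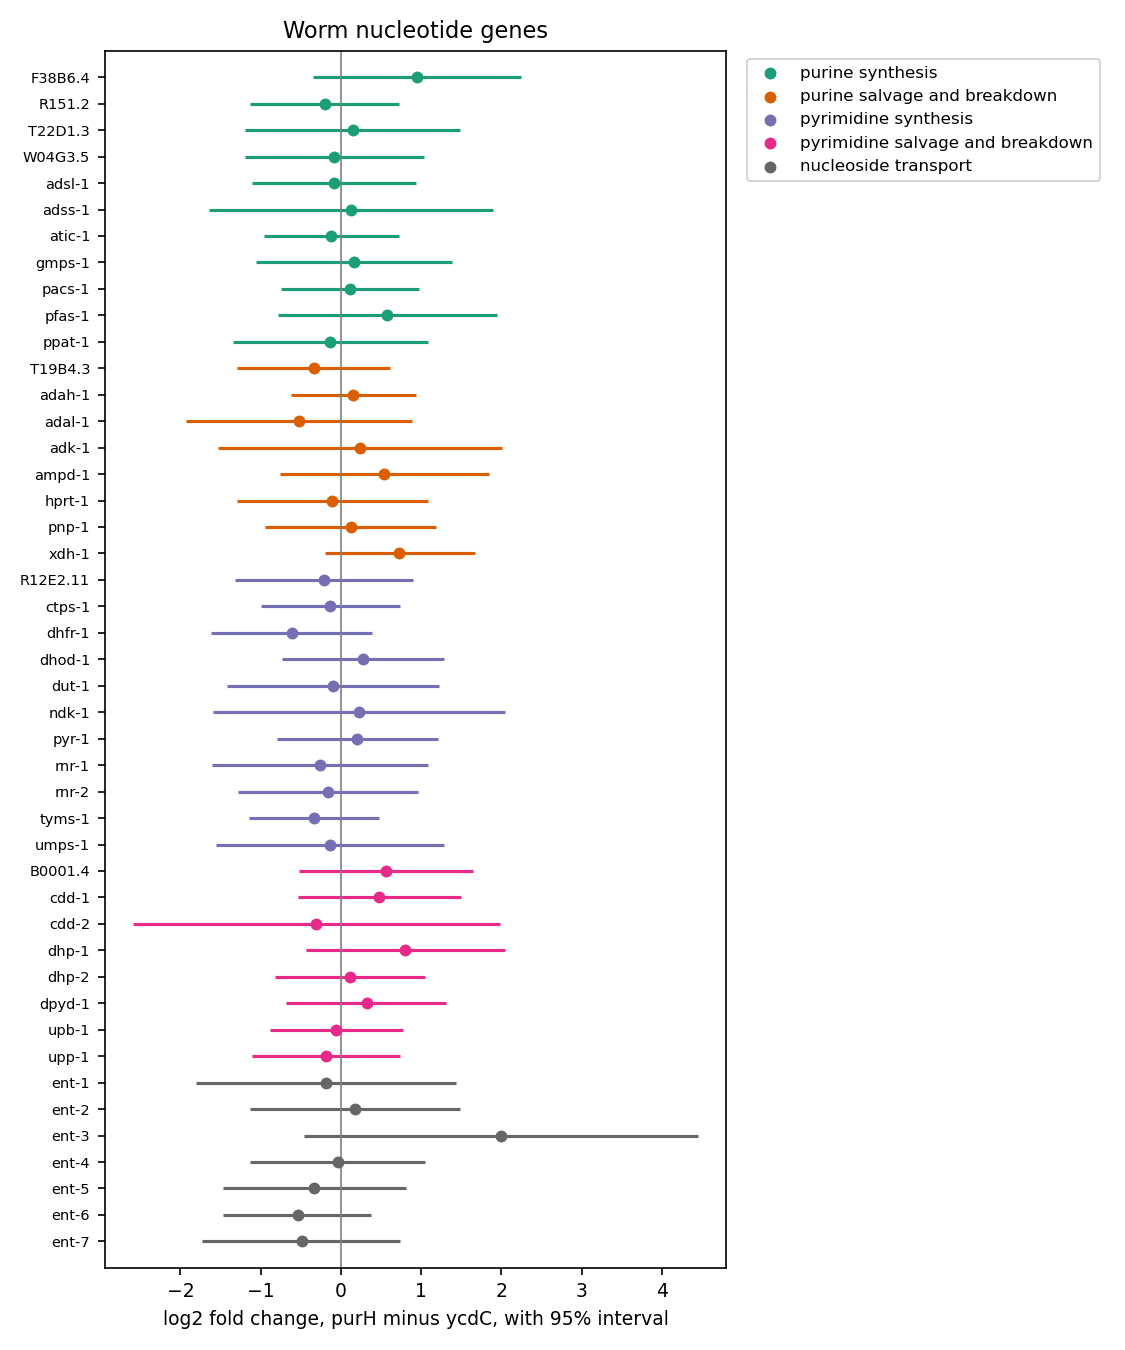
Log2 fold change, purH minus ycdC, with its 95% interval from edgeR for 45 worm genes of nucleotide metabolism, colored by list. All 45 intervals include 0; xdh-1 lies at 0.73 and atic-1 at -0.12.

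Cuticle collagens, the structural proteins of the worm's exoskeleton, had a median log2 fold change of 1.53 over the 140 of 163 genes that passed the filter, and ranged widely among libraries. No collagen was called. Of the 140, 17 had an unadjusted edgeR p under 0.05, all higher in purH, against 0.664% of all genes tested. In 2 of the 140 (1.43%) every purH library was above every ycdC library, against 1.6% of all genes tested. The summed level of the 140 was 29500, 136000 and 177000 CPM in purH, against 53500, 61800 and 82800 CPM in ycdC. PurH replicate 1 was below all ycdC libraries and purH replicates 2 and 3 were above them. Among the 33 libraries ordered from the highest level, the purH libraries took places 33, 7 and 8 and the ycdC libraries places 31, 19 and 28. Many collagen genes are alike in sequence, so reads could be split between them.

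Leaving out purH replicate 1 gave 158 calls among 13642 genes tested (1.16%), 131 higher (0.96%) and 27 lower (0.198%) in purH, by edgeR at an adjusted p under 0.05, with a smallest adjusted p of 0.017. These calls compare 2 purH libraries with 3 ycdC libraries, and the library left out is the one that stands apart from its diet. It went against most of these calls. Of the 158 genes, 153 were also tested in the fit of 6 libraries, and purH replicate 1 lay beyond the ycdC libraries on the opposite side in 125 of them, within the ycdC range in 22, and on the same side in 6. Leaving out any other library gave 0 calls.

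Of the 42 collagens called higher without purH replicate 1, that library was below all ycdC libraries in 39, and 3 collagens were called lower. Together they made 28.5% of the 158 calls and 29.6% of the 152 collagens tested there. The genes named for this comparison were chosen after their values were seen. The body-shape collagen gene dpy-13 had 3.82, 956 and 339 CPM in purH, against 10.6, 93.8 and 50.3 CPM in ycdC, and sqt-1, another one, had 0.444, 115 and 37.2 CPM in purH, against 2.81, 14.5 and 5.77 CPM in ycdC. Without purH replicate 1, their log2 fold changes were 3.63 (SE 0.73, edgeR adjusted p 0.0209) and 3.27 (SE 0.60, edgeR adjusted p 0.017). For col-145 the values were 6.13, 441 and 215 CPM in purH, against 12.3, 46.6 and 30.0 CPM in ycdC, with 3.45 without purH replicate 1. In all 3 genes, purH replicate 1 was the lowest and purH replicate 2 the highest of the 6 libraries.

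The collagens called lower went the other way. The col-165 gene had 65.5, 0.0462 and 1.16 CPM in purH, against 147, 39.5 and 6.13 CPM in ycdC, with a log2 fold change of -6.91 (SE 1.16, edgeR adjusted p 0.017) without purH replicate 1. The cuticlin gene cut-3, for another cuticle protein, had 43.1, 0.0462 and 0.745 CPM in purH, against 50, 16.7 and 2.62 CPM in ycdC, with -6.06. The metallothionein gene mtl-1, which codes for a metal-binding stress protein, had 38.4, 1.89 and 2.32 CPM in purH, against 69.1, 88.8 and 4.16 CPM in ycdC, with -4.70. Here purH replicate 1 sided with ycdC replicates 1 and 2, and ycdC replicate 3 was the ycdC library nearest to purH replicates 2 and 3. The hatching protease gene hch-1 and the cytochrome P450 gene cyp-34A9 were also lower, with -2.59 and -3.15. The cut-3 gene overlaps evl-20 on the opposite strand.

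**Figure D5:**
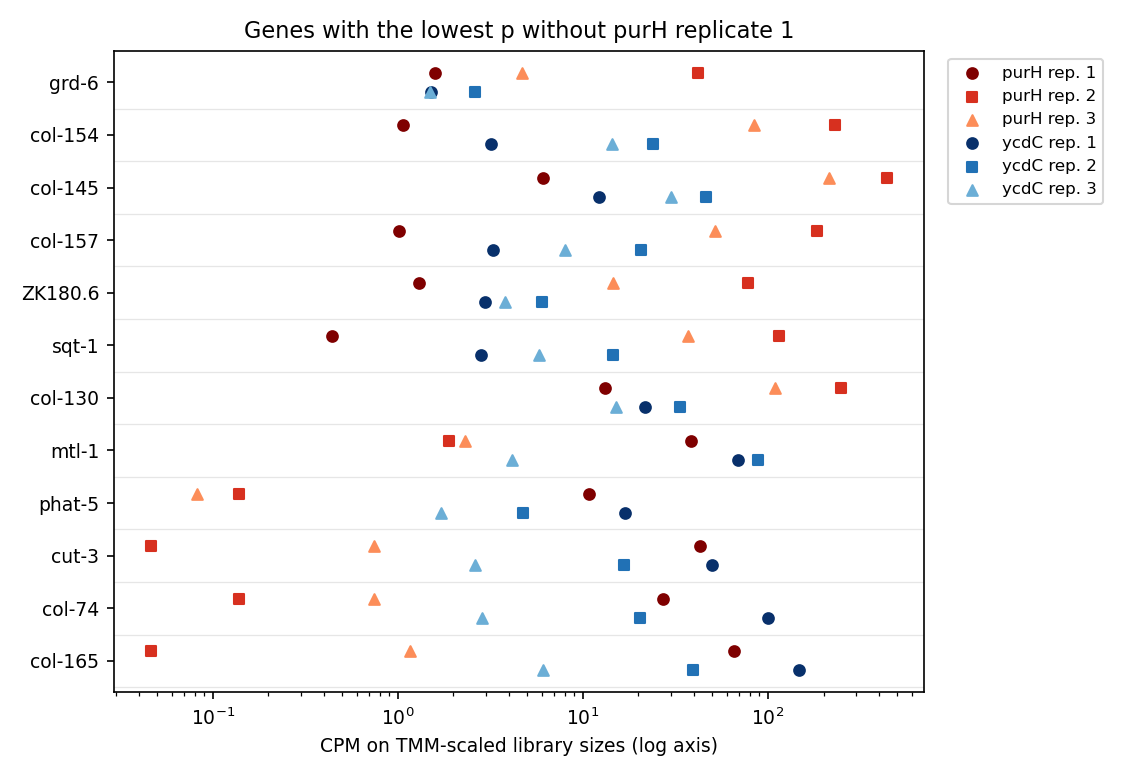
CPM on a log axis in each library for the 12 genes with the lowest p when purH replicate 1 is left out, among those with a mean of at least 5 CPM, purH drawn above ycdC in each row. For col-145, purH replicates 2 and 3 lie at 441 and 215 CPM and purH replicate 1 at 6.13 CPM, below the ycdC libraries at 12.3 to 46.6 CPM.

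Sperm genes were among the calls without purH replicate 1. The sperm list holds 40 genes, of which 24 passed the filter in the fit of 6 libraries with 0 called, and 4 of 31 (12.9%) were called higher without purH replicate 1, against 0.96% of all genes tested in that fit. The sperm-specific phosphatase gene gsp-3 had 0.355, 50.4 and 52.4 CPM in purH, against 1.72, 6.65 and 11.8 CPM in ycdC, with a log2 fold change of 2.92 (SE 0.57, edgeR adjusted p 0.0209). The major sperm protein gene msp-3, from a family of near-identical copies, had 2.37, 84.6 and 81.9 CPM in purH, against 2.46, 17.1 and 18.6 CPM in ycdC, with 2.69. Both genes were lowest in purH replicate 1, followed by ycdC replicate 1. The other called members were gsp-4 and msp-76, with 2.5 and 2.55. The summed level of the list was 194, 3880 and 3560 CPM in purH, against 194, 961 and 1030 CPM in ycdC, so replicate 1 of both diets stood at the same low level. The sperm marker fer-1 was above 0 in every library. Whether sperm content moved the other calls was not tested.

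Of the 158 genes, 98 belong to none of the 51 lists. The genes described next were not picked from these 98 alone. Of the genes named above by the rule, 3 rose in purH without purH replicate 1, namely wrt-4, tag-297 and ZK662.2, with log2 fold changes of 2.37, 2.3 and 2.27 (edgeR adjusted p 0.0453, 0.0494 and 0.0468). By the naming rule itself, all purH libraries were above all ycdC libraries in these 3 genes, in ZK662.2 by a narrow margin. The values of tag-297 were 5.98, 26.5 and 7.61 CPM in purH, against 4.44, 4.04 and 1.72 CPM in ycdC, and those of ZK662.2 were 3.43, 17.0 and 8.85 CPM in purH, against 3.39, 3.09 and 1.43 CPM in ycdC. PurH replicate 2 was the highest library in all 3 genes, and without it the log2 fold changes were 1.1 in wrt-4, 1.03 in tag-297 and 1.26 in ZK662.2, none of them called. The arginine kinase gene argk-1 had 16.3, 101 and 76.2 CPM in purH, against 22.5, 28.5 and 16.6 CPM in ycdC, with 1.96 (SE 0.47, edgeR adjusted p 0.0399) without purH replicate 1, and purH replicate 1 was again the lowest. The abu genes abu-1 and abu-7, named for activation in a blocked unfolded protein response, were higher, each with 3.51.

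The lists for behavior, the subject of the series title, gave no call with or without purH replicate 1. Of 24 genes for oxygen sensing and social feeding, 9 passed the filter, with a median log2 fold change of 0.13. The gene flp-21, for a ligand of the neuropeptide receptor NPR-1 that governs aggregation, had 3.73, 5.68 and 10.3 CPM in purH, against 4.52, 4.18 and 7.08 CPM in ycdC, with a log2 fold change of 0.32 (-0.86 to 1.5). For flp-18, another ligand gene of that receptor, the values were 6.28, 7.85 and 4.39 CPM in purH, against 4.25, 9.31 and 6.42 CPM in ycdC, with -0.11 (-1.19 to 0.98). The TGF-beta gene daf-7, which is read in sensory neurons, had 1.87, 2.77 and 5.71 CPM in purH, against 2.96, 3.09 and 4.34 CPM in ycdC, with -0.02 (-1.3 to 1.27). The diets overlapped in all 3 genes, at low levels in RNA from whole animals.

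Genes for dopamine (17 of 21 tested) and for serotonin, octopamine and tyramine (14 of 17 tested) had medians of 0.07 and 0.08. The aromatic amino acid decarboxylase gene bas-1, needed for both dopamine and serotonin, had 10.7, 17.2 and 23.4 CPM in purH, against 12.4, 18.1 and 19.4 CPM in ycdC, with 0.04 (-0.91 to 0.98). The tyrosine decarboxylase gene tdc-1, for tyramine, had a log2 fold change of -0.38 (-1.45 to 0.68). Neuropeptide genes (102 of 112 tested) had a median of 0.17. Of the 102, 5 were higher and 1 was lower in purH without overlap, against 1.6% and 1.18% of all genes tested. Among the 5 were nlp-25 and nlp-34, which are also on the list of epidermal antimicrobial peptides.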

How the data were processed

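For each library the authors estimated an expected count (reads per gene) and deposited it with a TPM value, per the file headers. WBcel235, HISAT, StringTie and Bowtie2 are named in the submitters' processing notes, without roles or versions, and no source used here names the counting tool. Counts that were not whole, 8.04% to 10% in a library, were rounded. The TPM values deposited by the authors served only to compare levels between genes. No column of another series was present (0 unused).

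Genes were filtered with filterByExpr, scaled with TMM and tested in edgeR 4.0.16 (R 4.3.3) by the quasi-likelihood test on the 6 libraries, purH minus ycdC, with Benjamini-Hochberg adjustment and calls at an adjusted p under 0.05. The standard error comes from the log2 fold change and its F statistic, and log2 CPM used a prior count of 2. DESeq2 1.42.0 and limma 3.58.1 were alternatives. The fit was tested on simulated data. The simulated counts held no shift of a whole library like that of purH replicate 1, so they do not show how the fit behaves here. No pair of libraries agreed within sampling noise: the lowest chi-square per degree of freedom, over genes with 10 or more counts in the pair, was 94.2.

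Symbols were matched to Ensembl release 115 of WBcel235, 18102 directly and 536 by locus name or synonym, with 173 unmatched, and symbols that look like dates are not named. The comparison, its members and the 51 lists were chosen with earlier results of these data known. From the pyrimidine list, tdpt-1, no pyrimidine enzyme, was removed after values were seen. Named genes are called ones, or else up to 12 per direction without overlap, with a mean of at least 5 CPM and the lowest p. Eligible were 89 higher and 107 lower genes. From the lower genes that this rule names, 1 is not reported here. Intervals cover the spread between these libraries, and floors cover counting error only.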

Additional observations from a re-analysis of the deposited data

How the results depend on the processing

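The count of genes called was 0 with RLE factors, library totals alone, limma voom with library weights, no filter on low counts, the fit of all 33 libraries and the replicate block. DESeq2 called 1 gene, 1 of them lower. Leaving out 1 library gave 0 to 158 genes called, 0 to 131 higher, 0 to 27 lower and 0 to 60 list members called, with every call from the fit without purH replicate 1; the cause was not tested. Over the named genes, 309 alternative values kept the side of the threshold, 3 passed it, those of wrt-4, tag-297 and ZK662.2 without purH replicate 1, and 0 turned sign. These genes were picked for having no overlap between the diets, so a kept sign was largely fixed by that choice and is no support. With library weights, purH replicate 1 had 0.261 and ycdC replicate 1 had 3.47.

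The replicate numbers paired the libraries only in part. Deviations from the diet mean correlated at 0.521 for number 1, -0.184 for number 2 and 0.688 for number 3. PurH replicates 1 and 3 each correlated best with the ycdC library of the same number. Whether a replicate number marks a shared step was not tested. With the number as a replicate block, 0 genes were called and 226 had an unadjusted edgeR p under 0.05, against 99 without the block. Not every library correlated best with its own number, since purH replicate 2 had 0.406 with ycdC replicate 3.

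Library totals lay between 20.5 M and 22.7 M, while TMM factors ran from 0.591 to 1.63. What limits the comparison is the spread within a diet, with 3 libraries each, and a list median near 0 turned sign in several settings, as purine synthesis did from -0.16 to 0.36.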

Other observations

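Some lists not described above held members without overlap. In the list of embryonic regulators, 3 of 27 genes tested were lower in every purH library than in every ycdC library, against 1.18% of all genes tested. The forkhead gene pha-4, which specifies the pharynx, had 8.08, 8.55 and 8.19 CPM in purH, against 18.4, 8.84 and 10.9 CPM in ycdC, with a log2 fold change of -0.62. The T-box gene tbx-2 had 5.15, 5.73 and 4.63 CPM in purH, against 12.9, 6.69 and 6.07 CPM in ycdC, with -0.72, and the zinc finger gene ztf-11 had -0.68. The purH libraries were tight for pha-4 and tbx-2, and ycdC replicate 1 was the highest of the 6 in all 3 genes. For pha-4 the gap was narrow, from 8.55 CPM in purH replicate 2 to 8.84 CPM in ycdC replicate 2. Counts without overlap were not made for this list under other library scalings. None of the genes had an adjusted edgeR p under 0.05, and they were singled out after their values were seen.

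Of the 24 genes of the p38 pathogen response, 2 were higher in every purH library, against 1.6% of all genes tested. The lysozyme gene lys-2 had 320, 262 and 210 CPM in purH, against 197, 202 and 147 CPM in ycdC, with 0.54. For dod-24 the values were 17.5, 33.0 and 17.1 CPM in purH, against 13.3, 13.5 and 13.0 CPM in ycdC, with 0.77. Both had an adjusted edgeR p of 1. Other library scalings were not tried for the count without overlap in this list.

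In one-carbon metabolism, which supplies carbon units for purine synthesis, the 25 genes tested had a median log2 fold change of 0.12. The S-adenosylmethionine synthetase gene sams-1 had 48.0, 398 and 464 CPM in purH, against 161, 96.6 and 309 CPM in ycdC, with 0.68 (95% interval -1.11 to 2.48). The methionine synthase gene metr-1 had 27.5, 76.9 and 78.6 CPM in purH, against 53.3, 44.5 and 82.3 CPM in ycdC, with 0.02. Both were lowest in purH replicate 1. The acyl-CoA dehydrogenase gene acdh-1, a dietary sensor for propionate and vitamin B12, had 362, 378 and 281 CPM in purH, against 241, 784 and 251 CPM in ycdC, with -0.32 (-1.67 to 1.03).

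Cytosolic ribosomal protein genes, 80 tested with 0 called, sat at a median of -0.62, -0.19 and 1.12 log2 units from the gene mean in purH replicates 1 to 3, against -0.37, -0.36 and 0.37 in ycdC replicates 1 to 3. Replicate 3 was the highest library of each diet.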
